A study of Mus musculus with 7 samples.

Results

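MHC class I antigen presentation was followed through 10 genes in pancreatic islets of db/db mice: B2m, H2-K1, H2-D1, Tap1, Tap2, Tapbp, Psmb8, Psmb9, Psmb10 and Nlrc5. The genes were taken by symbol from a table of 51912 gene identifiers. All 10 had a row, and all 10 were among the 16504 genes with enough counts to be tested. Islets came from 3 db/db mice given AAV-Adipsin and 4 db/db mice given AAV-GFP, an adeno-associated virus that carries adipsin or green fluorescent protein. The db/db genotype, a leptin receptor mutation that leads to obesity and diabetes, is shared by both groups, and no lean mouse was among the 7. Islets were isolated 4 weeks after the vector and kept for 12 h in culture before RNA extraction, each mouse gave 1 library, and the study design states that serum glucose was similar in the groups at that time. The sources used here give neither the age, sex and strain background of the mice nor the promoter of the vector.

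Class I molecules show peptides from inside the cell to CD8+ T cells. The proteasome cuts proteins into peptides, the transporter made of Tap1 and Tap2 moves them into the endoplasmic reticulum, and tapasin (Tapbp) holds the transporter beside an empty class I molecule until a peptide fits. That molecule is a heavy chain, H2-K or H2-D in the mouse, joined to beta-2 microglobulin (B2m), and interferon-gamma induces nearly every step, partly through the transactivator Nlrc5. In islets, high class I on beta cells is best known from autoimmune diabetes, which is not the disease of the db/db mouse.

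In GRCm38, 7 of the 10 genes lie on chromosome 17, where the mouse MHC is. Psmb9 (ENSMUSG00000096727, chr17:34181987-34187764, minus strand), Tap1 (ENSMUSG00000037321, chr17:34187553-34197225, plus strand), Psmb8 (ENSMUSG00000024338, chr17:34197721-34201454, plus strand) and Tap2 (ENSMUSG00000024339, chr17:34203527-34216321, plus strand) stand in a row within 34335 bases. H2-K1 (ENSMUSG00000061232, chr17:33996017-34000347, minus strand) and Tapbp (ENSMUSG00000024308, chr17:33915899-33929292, plus strand) lie on one side of that row, and H2-D1 (ENSMUSG00000073411, chr17:35262730-35267499, plus strand) on the other. B2m (ENSMUSG00000060802, chr2:122147686-122153083, plus strand) is alone on chromosome 2. Psmb10 (ENSMUSG00000031897, chr8:105935735-105938444, minus strand) and Nlrc5 (ENSMUSG00000074151, chr8:94434356-94527272, plus strand) lie apart on chromosome 8.

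Total counts ran from 29601707 to 43997400 per library. Cfd, the gene of adipsin, had 3965, 839 and 1481 counts in AAV-Adipsin islets, against 1, 0, 0 and 0 counts in AAV-GFP islets, as the labels have it. Cfd was the 1 gene of the whole table past the threshold of an adjusted p of 0.05 (edgeR's quasi-likelihood test). The 17 beta cell markers summed to between 169139 and 209422 CPM in AAV-Adipsin islets and between 179062 and 208177 CPM in AAV-GFP islets, where CPM are the counts scaled to a common library size, and so the tissue carried its label. In the sample descriptions, AAV-Adipsin 1 and AAV-GFP 1 have a treatment name and the other 5 libraries have a db number. Those 2 treatment-named libraries stood apart from the 5 db-numbered ones, and results are given with and without them where they matter. The mice are separate biological replicates, but the sources used here do not give what else the style of description goes with.

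The class I pathway did not differ detectably between AAV-Adipsin and AAV-GFP islets: 0 of 10 genes passed the threshold, by edgeR, DESeq2 or limma-voom. Over all genes tested, 0.00606% (1 gene) passed it by edgeR, 4 genes by DESeq2 and 0 by limma-voom. As limma-voom did not call even Cfd, its 0 of 10 carries no information. The fitted log2 fold change, AAV-Adipsin over AAV-GFP, was above 0 for 5 genes and below 0 for 5, with a median of 0.016, against −0.011 over all genes tested. This division was not stable: 2 of 10 were above 0 without AAV-GFP 1 (median −0.08) and 10 of 10 without AAV-GFP 4 (median 0.14). Apart from Nlrc5, no gene of the 10 had a fold change larger than 0.11 in size on the log2 scale. Nlrc5 was the 1 gene with an unadjusted p under 0.05, which 1.16% of all genes tested had. Bulk RNA cannot tell fewer cells of a type from less RNA per cell, and this holds for every level below.

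**Figure D1:**
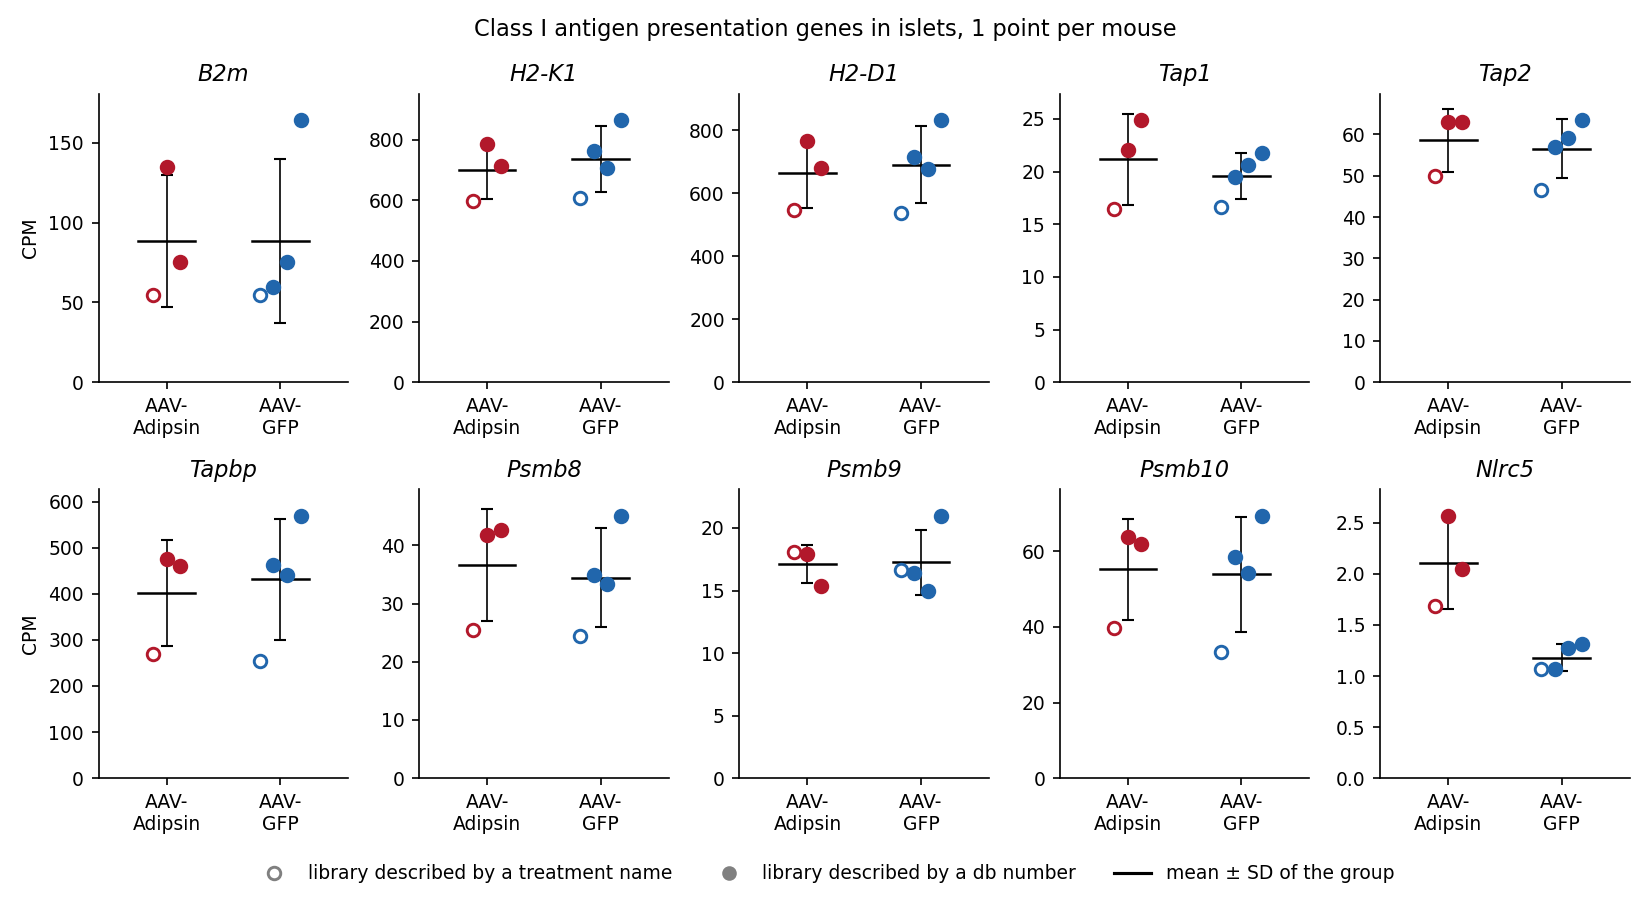
CPM of the 10 genes in each library, with AAV-Adipsin left of AAV-GFP in each panel, 1 point per mouse and the mean ± SD of each group. The groups overlap in 9 panels and separate for Nlrc5, and the open points, the treatment-named libraries, lie below all filled points in 8 panels.

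H2-K1 and H2-D1, the classical heavy chains, were the most abundant of the 10 transcripts. H2-K1 had 599, 785 and 714 CPM in AAV-Adipsin islets and 606, 762, 707 and 865 CPM in AAV-GFP islets. H2-D1 had 547, 767 and 680 CPM in AAV-Adipsin islets and 538, 714, 679 and 834 CPM in AAV-GFP islets. In both genes AAV-Adipsin 1 and AAV-GFP 1 were the lowest, AAV-GFP 4 was the highest, and the groups overlapped. The log2 fold change was −0.07 (SE 0.14, 95% interval −0.39 to 0.24) for H2-K1 and −0.06 (SE 0.16, 95% interval −0.43 to 0.31) for H2-D1. In the reference, 9.63% of the 50-base stretches of H2-K1 exons and 12.8% of those of H2-D1 occur in other genes as well, mostly other class I genes, so how reads were shared out among them is uncertain. Their summed level, which does not depend on how reads were divided between the 2, was 1364 ± 205 CPM in AAV-Adipsin islets (SD, n = 3) and 1426 ± 230 CPM in AAV-GFP islets (SD, n = 4). Class I genes also vary between mouse strains, and reads were set against the reference strain.

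B2m, the light chain that every classical class I molecule needs, had the widest range of the 10 genes relative to its lowest level. It had 54.9, 135 and 75.3 CPM in AAV-Adipsin islets and 54.4, 59.9, 75.5 and 164 CPM in AAV-GFP islets. AAV-Adipsin 2 and AAV-GFP 4, 1 library of each group, were far above the rest, and the highest library held 3.03 times the level of the lowest. The groups thus had nearly the same mean, 88.3 ± 41.4 CPM in AAV-Adipsin islets and 88.6 ± 51.4 CPM in AAV-GFP islets, and a wide interval for the log2 fold change of −1.14 to 1.13 around −0.0040 (SE 0.48). On a linear scale this interval runs from 0.455 to 2.19 times the AAV-GFP level, so a change of either kind within it was not detectable here. H2-K1 varied far less, with a highest library 1.44 times the lowest. Per kb of exon, B2m was 0.313, 0.586 and 0.360 of H2-K1 in AAV-Adipsin islets and 0.307, 0.269, 0.365 and 0.649 of H2-K1 in AAV-GFP islets, so the light chain and the heavy chain did not keep a fixed ratio from mouse to mouse. With the length of the principal transcript of each gene in place of merged exons, the ratio was 0.173, 0.323 and 0.198 in AAV-Adipsin islets and 0.169, 0.148, 0.201 and 0.358 in AAV-GFP islets, lower in each library by the same factor.

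The upstream windows of the genes named for the complex are shown because the heavy chains and B2m share an arrangement of short patterns in them, and because Tap1 and Psmb9 start from the same stretch of DNA on opposite strands. Sequences are from RefSeq (build GRCm38.p6), cover the 250 bases before the start annotated by RefSeq and run 5′ to 3′ on the gene's own strand. These starts are not always those of the gene coordinates above. The windows of H2-D1, Tapbp and Psmb8 lie inside those coordinates. Capitals mark TGACG (the core of the CREB site), ATTGG (the reverse complement of the CCAAT box, bound by NF-Y), GAAANNGAA (a half-pattern of interferon response elements) and GGG followed after 2 or 3 bases by TTCC (a pattern of NF-kB sites), searched on both strands; in the 4 windows no match overlaps another.
H2-K1 (chr17:34000348-34000597, minus strand): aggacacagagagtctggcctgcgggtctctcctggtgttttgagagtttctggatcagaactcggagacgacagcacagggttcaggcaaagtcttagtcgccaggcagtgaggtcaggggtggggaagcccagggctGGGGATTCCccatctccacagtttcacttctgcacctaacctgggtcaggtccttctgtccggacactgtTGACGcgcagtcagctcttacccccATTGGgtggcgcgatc
H2-D1 (chr17:35262844-35263093, plus strand): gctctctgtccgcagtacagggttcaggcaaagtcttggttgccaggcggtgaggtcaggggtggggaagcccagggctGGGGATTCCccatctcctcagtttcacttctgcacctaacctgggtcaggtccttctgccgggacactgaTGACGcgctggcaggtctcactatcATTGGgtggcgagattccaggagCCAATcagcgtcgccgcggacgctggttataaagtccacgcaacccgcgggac
B2m (chr2:122147437-122147686, plus strand): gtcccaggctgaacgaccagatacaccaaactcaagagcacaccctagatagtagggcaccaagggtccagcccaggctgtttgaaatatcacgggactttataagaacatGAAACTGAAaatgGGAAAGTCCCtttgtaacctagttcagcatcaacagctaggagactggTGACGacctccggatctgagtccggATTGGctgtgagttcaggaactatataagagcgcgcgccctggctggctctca
Tap1 (chr17:34187306-34187555, plus strand): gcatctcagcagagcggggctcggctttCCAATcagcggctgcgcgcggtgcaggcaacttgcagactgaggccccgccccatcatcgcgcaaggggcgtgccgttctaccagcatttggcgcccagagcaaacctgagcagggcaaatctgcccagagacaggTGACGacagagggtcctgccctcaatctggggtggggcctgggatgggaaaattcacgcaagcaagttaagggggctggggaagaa

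In H2-K1, H2-D1 and B2m, TGACG was followed by ATTGG on the same strand, with 25 bases from the start of the first to the start of the second in all 3 windows. Of 32851 promoter windows of the same length, 0.381% hold TGACG followed by ATTGG at 20 to 30 bases on 1 strand, a range set after the windows had been read. The window of a second RefSeq start of H2-K1, not shown, also holds the pair at 25 bases, and ATTGG at 2 places. Aligned with the H2-D1 window, it was identical in 180 of 297 columns. The pairs of H2-K1 and H2-D1 are therefore not 2 separate occurrences. Singly the patterns are common: 17.8% of windows hold TGACG, 33.8% hold ATTGG, 7.13% hold GAAANNGAA and 8.26% hold the NF-kB pattern. In class I promoters, such a pair lies in the module to which RFX, CREB and NF-Y proteins bind and Nlrc5 is recruited, and the Nlrc5 values are given below. The NF-kB pattern was present in H2-K1, H2-D1 and B2m, and GAAANNGAA in B2m. After the NF-kB pattern, the H2-K1 and H2-D1 windows both hold cagtttcacttctg. On its other strand GAA comes before GAAA with 2 bases between, an order that was not searched for. Whether H2-K1 and H2-D1 have an interferon response element is thus not settled by this search. The Tap1 window has 1 TGACG and 1 ATTGG on opposite strands and not the pair, and it shares 225 bases with that of Psmb9, as the 2 starts lie 226 bases apart. The Tapbp window has ATTGG at 2 places, and those of Psmb8 and Psmb10 have none of these patterns, which says only that these letters are not in these windows. RefSeq windows were matched for 8 of the 10 genes, and those of Tap2 and Nlrc5 are not shown.

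Transport and loading of peptides rest on Tap1, Tap2 and Tapbp. Tap1 had 16.5, 22.1 and 24.9 CPM in AAV-Adipsin islets and 16.6, 19.5, 20.6 and 21.7 CPM in AAV-GFP islets. Tap2 had 49.8, 63.0 and 62.9 CPM in AAV-Adipsin islets and 46.6, 56.9, 59.2 and 63.6 CPM in AAV-GFP islets. In both subunits of the transporter the treatment-named library was the lowest of its group and the groups overlapped. The log2 fold change was 0.11 (SE 0.15, 95% interval −0.23 to 0.46) for Tap1 and 0.05 (SE 0.13, 95% interval −0.24 to 0.34) for Tap2. Tapbp, the tapasin that bridges transporter and heavy chain, had 270, 476 and 460 CPM in AAV-Adipsin islets and 254, 463, 440 and 569 CPM in AAV-GFP islets, which is a log2 fold change of −0.10 (SE 0.29, 95% interval −0.76 to 0.56). Its mean was 262 CPM in the treatment-named libraries and 482 CPM in the db-numbered ones. Tapbp exons overlap Zbtb22 by 149 bases on the same strand and a predicted gene, Gm19412, by 904 bases on the opposite strand, and Tap2 exons overlap antisense genes by 698 bases. The strand setting of the counting is not given, so reads from those stretches cannot be assigned with certainty.

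Psmb8, Psmb9 and Psmb10 encode the 3 catalytic subunits of the immunoproteasome, which take the places of Psmb5, Psmb6 and Psmb7 when interferon induces them. Psmb8 had 25.5, 41.7 and 42.6 CPM in AAV-Adipsin islets and 24.4, 34.9, 33.3 and 45.1 CPM in AAV-GFP islets. Psmb10 had 39.8, 63.9 and 62.0 CPM in AAV-Adipsin islets and 33.3, 58.4, 54.3 and 69.4 CPM in AAV-GFP islets. Psmb9 had 18.1, 17.9 and 15.4 CPM in AAV-Adipsin islets and 16.7, 16.4, 15.0 and 21 CPM in AAV-GFP islets. Psmb8 and Psmb10 were again lowest in the 2 treatment-named libraries, and Psmb9 was not, although Psmb9 lies beside Tap1 and near Psmb8 in the class II region of chromosome 17. The log2 fold changes were 0.09 (SE 0.23, 95% interval −0.44 to 0.62) for Psmb8, −0.01 (SE 0.13, 95% interval −0.31 to 0.29) for Psmb9 and 0.04 (SE 0.25, 95% interval −0.54 to 0.62) for Psmb10. Psmb9 and Tap1 exons overlap by 212 bases on opposite strands, and Psmb8 overlaps an antisense gene, Gm20496, by 498 bases.

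The ratio of an immunoproteasome subunit to its constitutive partner does not depend on the scaling of the library. Psmb8/Psmb5, as a ratio of counts, was 0.697 ± 0.167 in AAV-Adipsin islets and 0.677 ± 0.136 in AAV-GFP islets. Psmb9/Psmb6 was 0.187 ± 0.0368 in AAV-Adipsin islets and 0.186 ± 0.0272 in AAV-GFP islets, and Psmb10/Psmb7 was 0.826 ± 0.172 in AAV-Adipsin islets and 0.820 ± 0.193 in AAV-GFP islets (SD, n = 3 and 4). None of the 3 ratios differed beyond the spread between mice (two-sided exact permutation p of 0.743, 0.914 and 0.857 over the 35 ways to divide the libraries, each adjusted to 0.914), where the smallest p this design allows is 0.0571. By description style, the libraries did not overlap in any of the 3 ratios. Psmb8/Psmb5 was 0.510 and 0.485 in the treatment-named libraries and 0.694 to 0.831 in the db-numbered ones, and Psmb10/Psmb7 was 0.628 and 0.533 in the treatment-named libraries and 0.877 to 0.944 in the db-numbered ones. Psmb9/Psmb6 went the other way, with 0.229 and 0.225 in the treatment-named libraries and 0.161 to 0.184 in the db-numbered ones. Psmb9 itself had a mean of 17.4 CPM in the treatment-named libraries and 17.1 CPM in the db-numbered ones, and Psmb6 one of 76.6 and 100 CPM. In the same order the means were 50.2 and 52.1 CPM for Psmb5 and 62.9 and 66.9 CPM for Psmb7. Each of the 3 splits of a ratio by style has an exact permutation p of 0.0952, two-sided, the smallest that 2 libraries against 5 can give. The splits were chosen after the data were seen.

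**Figure D2:**
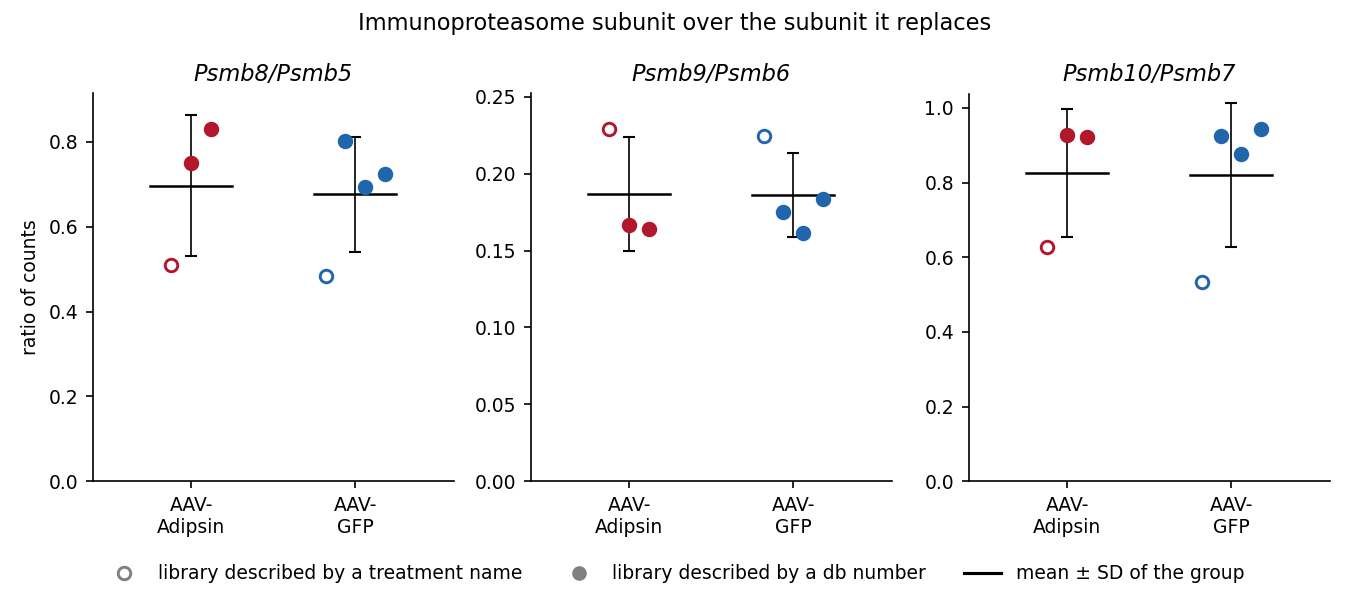
Ratio of counts of each immunoproteasome subunit to the subunit it replaces, AAV-Adipsin left of AAV-GFP, 1 point per mouse with the mean ± SD. The open points, the treatment-named libraries, are the lowest in the panels of Psmb8/Psmb5 and Psmb10/Psmb7 and the highest in that of Psmb9/Psmb6.

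Nlrc5, the transactivator of class I genes, was the member with the fewest reads and the largest difference between the treatments. It had 65, 81 and 82 counts in AAV-Adipsin islets, against 48, 33, 49 and 38 counts in AAV-GFP islets. In CPM these are 1.69, 2.57 and 2.05 in AAV-Adipsin islets and 1.07, 1.07, 1.27 and 1.31 in AAV-GFP islets, with means of 2.10 ± 0.444 (SD, n = 3) and 1.18 ± 0.129 (SD, n = 4) in that order of groups. Every AAV-Adipsin library lay above every AAV-GFP library, as was the case for 1.16% of the genes tested. The log2 fold change was 0.83 (SE 0.23, 95% interval 0.31 to 1.35), with an unadjusted p of 0.00598 and an adjusted p of 1.00 (edgeR), so it did not pass the test over all genes. Between the treatment-named libraries the difference of log2 CPM was 0.63, and between the db-numbered libraries of both treatments it was 0.89. Over the 17 alternative fits the log2 fold change lay between 0.67 and 0.97 and the unadjusted p between 0.00286 and 0.0310, while the adjusted p stayed between 0.596 and 1.00. The lowest of these fold changes was that without AAV-Adipsin 2, the highest library. The genes Nlrc5 is best known to induce, H2-K1, H2-D1, B2m, Tap1 and Psmb9, had the values above, and 0 of these 5 passed the test.

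**Figure D3:**
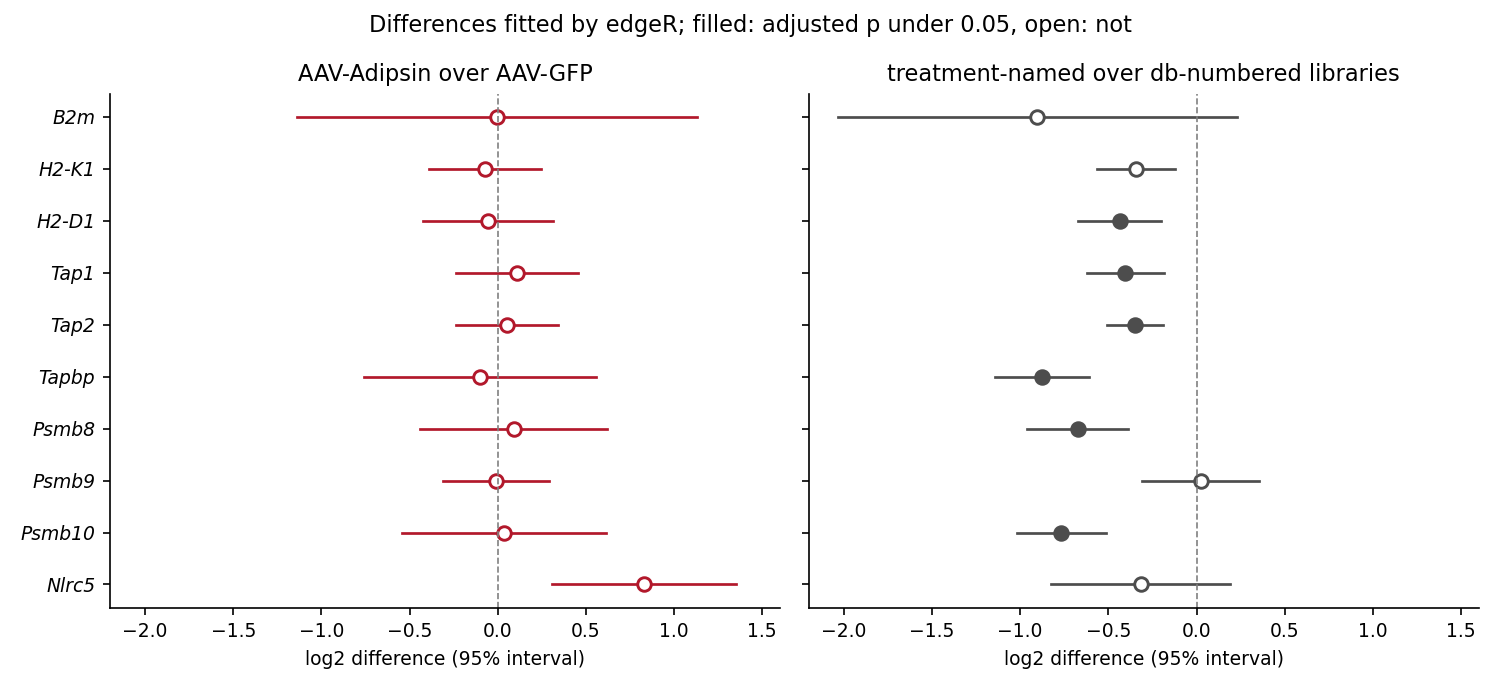
Log2 differences with 95% intervals fitted by edgeR, on the left for AAV-Adipsin over AAV-GFP and on the right for treatment-named over db-numbered libraries with treatment in the model. On the left the interval of Nlrc5, 0.31 to 1.35, is the 1 that leaves out 0 and no point is filled; on the right 6 points are filled, all below 0.

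Per kb of merged exons, and averaged over all 7 libraries, the members spread over more than 3 orders of magnitude. H2-D1 stood at 264 ± 42.0 CPM per kb and H2-K1 at 245 ± 32.6 CPM per kb (SD, n = 7 here and below). Tapbp followed at 115 ± 31.7 CPM per kb and B2m at 103 ± 50.6 CPM per kb. Then came Psmb10 at 31.9 ± 7.74, Tap2 at 15.2 ± 1.80 and Psmb8 at 10.5 ± 2.44 CPM per kb. Psmb9 at 4.70 ± 0.554 and Tap1 at 3.70 ± 0.555 CPM per kb were low, and Nlrc5 was at 0.186 ± 0.0663 CPM per kb. The ranges overlapped between the neighbours H2-D1 and H2-K1, Tapbp and B2m, Tap2 and Psmb8, and Psmb9 and Tap1, and not between the other neighbours. Tapbp was above B2m in 5 of the 7 libraries. With the length of the principal transcript in place of merged exons, a scale chosen after the data were seen, H2-K1 (445 CPM per kb) moved above H2-D1 (323) and Psmb8 (21.7) above Tap2 (16.7), so these orders depend on the transcript assumed. On either scale Tap1 was below Tap2 and Nlrc5 was last.

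More of the 10 genes differed by the style of the sample descriptions than by the treatment. In a model with treatment and style, a comparison added after the data were seen, 6 of 10 genes were lower in the treatment-named libraries and 0 were higher (edgeR, adjusted p under 0.05 over all genes tested), where 5.57% of all genes tested were lower and 4.22% were higher. The median log2 difference of the 10 was −0.42, against −0.0055 over all genes tested. Of the 6 that passed, Tapbp differed most, by −0.88 (SE 0.11, adjusted p = 0.00717). It had 270 and 254 CPM in the treatment-named libraries and 440 to 569 CPM in the db-numbered ones. Psmb10 differed by −0.77 (SE 0.11, adjusted p = 0.00926) and Psmb8 by −0.67 (SE 0.12, adjusted p = 0.020). H2-D1, Tap1 and Tap2 differed by −0.44, −0.40 and −0.35, with adjusted p from 0.0237 to 0.0378. H2-K1 at −0.34 (adjusted p = 0.0611) and B2m at −0.90 (SE 0.46, adjusted p = 0.262) were also below all db-numbered libraries in both treatment-named ones, without passing the test, so that 8 of the 10 genes were split in this way. Nlrc5 at −0.32 (adjusted p = 0.381) and Psmb9 at 0.02 (adjusted p = 0.934) were not.

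This difference rests on few libraries. With either AAV-Adipsin 1 or AAV-GFP 1 left out, 1 treatment-named library is left, which is then assumed to vary like the others, and 0 of the 10 genes passed. With AAV-Adipsin 2 or AAV-Adipsin 3 left out, 2 passed, Tapbp and Psmb10, and with AAV-GFP 3 left out 3 passed, those and Psmb8. With AAV-GFP 2 left out 5 passed, and with AAV-GFP 4 left out 7. The count of all genes lower in the treatment-named libraries moved as well, from 920 with all libraries to 47 without AAV-Adipsin 1, 243 without AAV-Adipsin 2, 306 without AAV-Adipsin 3, 39 without AAV-GFP 1, 664 without AAV-GFP 2, 414 without AAV-GFP 3 and 2376 without AAV-GFP 4. The median of the 10 stayed between −0.49 and −0.39 when any 1 library was left out. AAV-GFP 4 was the highest library for 8 of the 10 genes and AAV-GFP 1 the lowest for 7. Since each treatment has 1 treatment-named library, the style is nearly balanced between the groups. With style in the model 0 of 10 genes passed for the treatment, and the median treatment difference was 0.07.

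Genes that work beside the 10 were read from lists, none of which held a gene past the threshold for the treatment, by edgeR, DESeq2 or limma-voom. By limma-voom, 0 of all genes tested passed. Among nonclassical class I genes, 7 of 14 tested were above 0 and 7 below, with a median log2 fold change of 0.0010. H2-T23, the mouse counterpart of HLA-E, had a mean of 108 CPM in AAV-Adipsin islets and 110 CPM in AAV-GFP islets. The 3 with the smallest p, H2-T24 (0.51), H2-M2 (0.66) and H2-M3 (0.13), had unadjusted p of 0.202, 0.227 and 0.265. Of 11 other peptide loading genes, 7 were above 0 and 4 below, with a median of 0.018, and Sec61a1, Lnpep and Sec61b had the smallest p, all above 0.44. Of 15 constitutive proteasome genes 4 were above 0 and 11 below, with a median of −0.013, and for the partners Psmb5, Psmb6 and Psmb7 the log2 fold change was 0.04, −0.0059 and 0.03. The 4 proteasome activators had a median of −0.0078, with Psme2 at 0.05 and Psme3 at −0.08.

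Regulators and the interferon pathway were read in the same way. Of 14 class I regulators tested, 4 were above 0 and 10 below, with a median log2 fold change of −0.017. Irf9 (0.18) and Irf8 (0.24), which carry or follow interferon signals, were among those with the smallest p. Even so, their unadjusted p were 0.256 and 0.271 (edgeR). The 8 genes of interferon reception (receptor chains, Janus kinases and Socs1, a suppressor of their signal) had a median of −0.016, with 4 above 0 and 4 below. Interferon targets stood further out, with 21 of 22 tested above 0 and a median of 0.40, against −0.011 over all genes. Ifit3 had 5.13, 11 and 17.5 CPM in AAV-Adipsin islets and 4.38, 5.03, 5.85 and 5.49 CPM in AAV-GFP islets (log2 fold change 1.11, SE 0.35, unadjusted p of 0.0111, adjusted p = 1.00, edgeR). Ifit2, like Ifit3 an antiviral protein induced by interferon, had a log2 fold change of 1.18 (unadjusted p of 0.0116), and Igtp, an interferon-induced GTPase, one of 0.29 (unadjusted p of 0.0389), and in Igtp the groups did not overlap. In Ifit3 and Ifit2 the treatment-named AAV-Adipsin 1 lay among the AAV-GFP libraries, and AAV-Adipsin 3 was the highest. The 24 interferon targets summed to 190, 346 and 448 CPM in AAV-Adipsin islets and 173, 287, 276 and 294 CPM in AAV-GFP islets. Without AAV-Adipsin 3, 14 of 22 were above 0 and the median was 0.13. Without both treatment-named libraries, 22 of 22 were above 0 with a median of 0.50. In that fit 11 had an unadjusted p under 0.05 (edgeR), as 3.03% of all genes had. An adjusted p under 0.05 was reached by 0 of the 22 and by 0 of all genes tested in it. Without AAV-Adipsin 1 alone the median was 0.72.

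**Figure D4:**
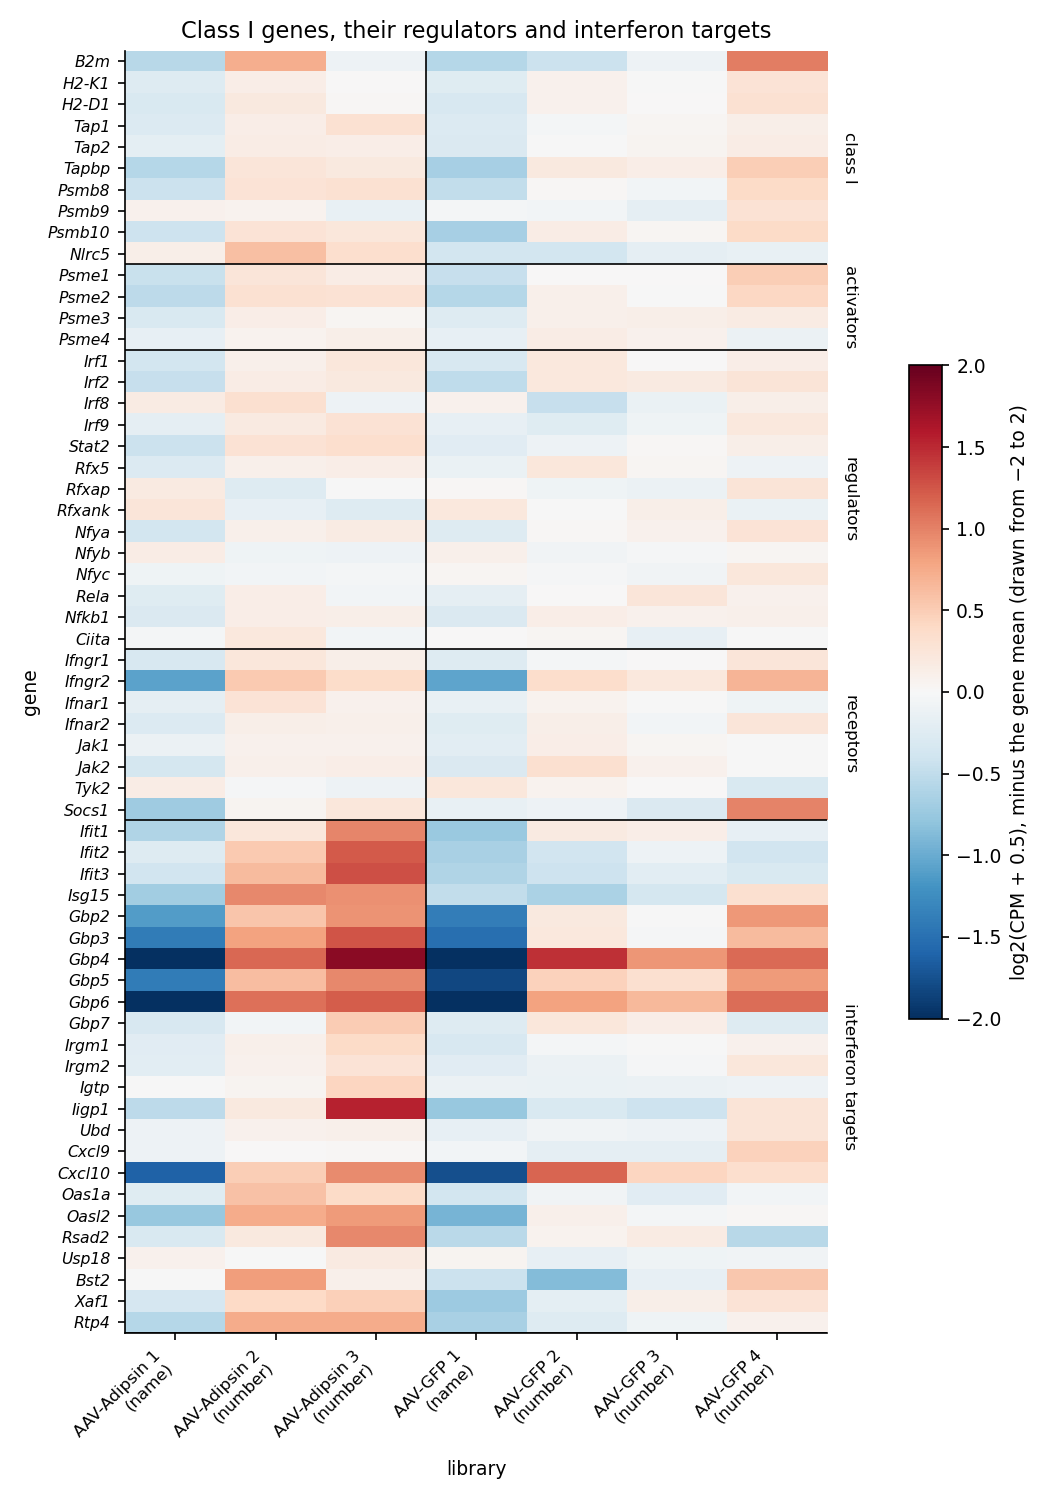
Log2(CPM + 0.5) of 60 genes minus the gene's mean over the 7 libraries, in colour from −2 to 2, with AAV-Adipsin left of AAV-GFP and the description style (name or number) under each library. The columns of AAV-Adipsin 1 and AAV-GFP 1 are blue, that is low, for most class I genes, for Psme1 and Psme2, for Ifngr2 and for the Gbp genes, while Psmb9 shows little colour there.

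By description style, genes of the same lists differed as well. Genes in this paragraph were chosen after their values were seen, as those with the smallest p by style in each list. Over all genes tested, 5.57% were lower in the treatment-named libraries and 4.22% were higher (edgeR, adjusted p under 0.05). Of the 22 interferon targets 11 were lower in the treatment-named libraries and 0 were higher. Gbp4, a guanylate-binding protein induced by interferon, had 0.908 and 0.623 CPM in the treatment-named libraries and 21 to 40.4 CPM in the db-numbered ones, a log2 difference of −5.27 (SE 0.31, adjusted p = 0.000315). Gbp6 differed by −3.89 and Gbp5 by −2.70. Ifngr2, a chain of the interferon-gamma receptor, had 20.6 and 20.8 CPM in the treatment-named libraries and 51.0 to 70.5 CPM in the db-numbered ones, a log2 difference of −1.52 (adjusted p = 0.00188), and 4 of the 8 genes of interferon reception were lower. Among regulators, 5 of 14 were lower, with Irf2 at −0.69, Irf1 at −0.48 and Nfkb1 at −0.41. Psme2 (−0.79) and Psme1 (−0.65), the 2 chains of the proteasome activator that interferon-gamma induces, and Psme3 (−0.39) made up 3 of 4 activators. In the loading list 5 of 11 were lower, led by Tapbpl (−0.52), Erap1 (−0.44) and Tpp2 (−0.34), and in the constitutive proteasome 3 of 15, Psma2 (−0.39), Psma4 (−0.38) and Psmb2 (−0.49). Of 14 nonclassical genes 1 was lower, H2-Q4 at −1.10, a share near that over all genes tested. In these 7 lists 0 genes were higher.

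Markers of other cells were set beside these values. Macrophages present antigen and express class I, and 19 of 19 macrophage markers had a log2 fold change above 0 for the treatment, with a median of 0.52 and 0 past the threshold. This rested on 1 library: without AAV-Adipsin 2, 9 of 19 were above 0 and the median was −0.0055. Their summed level was 184, 392 and 206 CPM in AAV-Adipsin islets and 164, 193, 177 and 245 CPM in AAV-GFP islets. The macrophage sum was highest in AAV-Adipsin 2 and AAV-GFP 4, the same libraries that were highest for B2m. The endothelial, stellate and class II sums were highest in these libraries too. In AAV-Adipsin 2 and AAV-GFP 4 they were 878 and 972 CPM (endothelial), 456 and 693 CPM (stellate) and 164 and 168 CPM (class II). The acinar sum was highest in AAV-GFP 3 and the beta cell sum in AAV-Adipsin 1. AAV-Adipsin 2 was also the highest for Nlrc5, whose log2 fold change was 0.67 without it. Fcgr1 (1.57), Ptprc (0.71) and Mpeg1 (0.66) had the smallest p in the macrophage list, unadjusted p of 0.00733, 0.0506 and 0.0528, each with an adjusted p of 1.00 (edgeR). Beyond these values the part of macrophages or other cells in the Nlrc5, B2m and interferon target levels was not tested. The 11 cytotoxic lymphocyte markers held 11 counts in all over the 7 libraries, with Ifng, Gzmb and Cd3e at 0 in each, so transcripts of such cells were close to the limit of detection.

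Class II genes, endothelial, stellate, acinar and beta cell markers completed the lists. Of 6 class II genes tested 5 were above 0 for the treatment, with a median of 0.10, and H2-Ea-ps had no count in any library. Endothelial markers were above 0 in 13 of 15 and stellate markers in 13 of 14, with medians of 0.18 and 0.22; the stellate sum was 331 to 456 CPM in AAV-Adipsin islets and 214 to 693 CPM in AAV-GFP islets, with AAV-GFP 4 the highest. Acinar markers were below 0 in 18 of 18, with a median of −0.39 and sums of 4009 to 15405 CPM in AAV-Adipsin islets and 3273 to 21439 CPM in AAV-GFP islets. With 1 library left out these medians could change sign: class II was at −0.23 without AAV-Adipsin 2, stellate at −0.03 without AAV-GFP 2 and acinar at 0.22 without AAV-GFP 3. Without AAV-GFP 4 the stellate median was 1.08 and the endothelial median 0.35, with 13 of 14 and 10 of 15 genes at an unadjusted p under 0.05 (edgeR). Over all genes tested in that fit 3.49% had such a p, and 0 passed the threshold on the adjusted p. Beta cell markers were below 0 in 15 of 17, with a median of −0.06, and 1 of them, Nkx2-2, had an unadjusted p under 0.05 (−0.27, unadjusted p of 0.0287). By style, 2 of 19 macrophage markers were lower in the treatment-named libraries, Cx3cr1 and Msr1. Of 17 beta cell markers 4 were higher, Iapp, Slc2a2 and Slc30a8 among them. Over all genes tested, 5.57% were lower and 4.22% were higher. Among endothelial, stellate, acinar and class II genes 0 passed the test. The median log2 difference by style was nonetheless −1.27 for acinar, −0.64 for macrophage, −0.56 for class II, −0.52 for stellate and −0.23 for endothelial genes, beside −0.42 for the 10 class I genes and 0.08 for beta cell markers. Their part in the style difference of the class I genes was not tested.

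The genes that ran most like the 10 were found by Pearson's r with the mean of the members' standardised log2 CPM over the 7 libraries, among 10775 genes with at least 5 CPM on average. The 6 with the highest r were Rit1 (0.998), Eef1g (0.994), Krt87 (0.993), Prdx1 (0.991), Cblc (0.991) and Psma7 (0.99). Over the 5 db-numbered libraries alone, r was 0.995 for Rit1, 0.981 for Eef1g, 0.980 for Krt87, 0.984 for Prdx1, 0.946 for Cblc and 0.985 for Psma7. These 5 were among the 7 libraries by which the genes were chosen, so this is not a separate check. The points share their scaling and the step between the 2 styles, and r is given as a description. Psma7, a subunit of the proteasome core, had 105, 130 and 125 CPM in AAV-Adipsin islets and 102, 119, 117 and 141 CPM in AAV-GFP islets, with the 2 treatment-named libraries lowest and AAV-GFP 4 highest. No pairwise correlation between the 10 genes is given, since the 7 libraries fall into 2 separate styles and the 5 db-numbered libraries are fewer than the 6 taken as the least for such a test.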

How the data were processed

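Per the labels, islet RNA of 7 mice was made into TruSeq stranded mRNA libraries. The submitters' processing notes name STAR and the build mm10 (GRCm38). The authors deposited raw read counts per gene in 1 table with a column per library, and 0 sample columns were left unused. The sources used here give no STAR version, counting program or strand setting. Of the identifiers, 51719 were found in GENCODE (mouse, release number 21), used for symbols, coordinates and exon lengths, and 193 were not matched.

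Counts were filtered by group (filterByExpr), scaled by TMM factors (trimmed mean of M values) and tested in R 4.3.3 with edgeR 4.0.16 by a robust quasi-likelihood F test, two-sided, with Benjamini-Hochberg adjustment over all 16504 genes tested and a threshold of 0.05. Standard errors are the log2 fold change over the square root of F. CPM are counts divided by the library total times its TMM factor, in the usual unit. Alternatives used limma 3.58.1, DESeq2 1.42.0, other scalings and filters, a replicate block, description style as a batch and removal of libraries. Log2 CPM carried a prior count of 2. The scripts were tested on simulated data. A p measures the spread between mice, and counting error alone is larger for genes with few reads, such as Nlrc5.

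The genes and lists were chosen with earlier results of these data known. The genes named are the 10 members, up to 3 genes with the smallest p per list, Psmb5, Psmb6 and Psmb7, H2-Ea-ps, Cfd and the 6 genes most like the members. Exceptions, chosen after their values were seen, are the genes named for description style and H2-T23. The symbols Hm13 and H2-Ea of the lists had no match in the table. The planned correlations between the 10 genes were not given, as the libraries fall into 2 separate styles. Sequences are RefSeq's (GRCm38.p6). List medians under the alternatives were added after the data were seen. For 1 gene of the regulator list the values are not reported here.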

Additional observations from a re-analysis of the deposited data

Results flagged for a closer look

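The log2 ratio of Psmb10 to Psmb7 in the 4 AAV-GFP libraries was flagged because 1 library lay far from the others. As ratios of counts, the values were 0.628, 0.929 and 0.922 in AAV-Adipsin 1, 2 and 3 and 0.533, 0.926, 0.877 and 0.944 in AAV-GFP 1, 2, 3 and 4. The gap between AAV-GFP 1 and the nearest library of its group, divided by the range of the group on the log2 scale, was 0.872, above Dixon's 95% critical value for 4 samples. Such a rule flags about 1 in 20 groups by chance, and 13 quantities were examined in the AAV-GFP group. AAV-Adipsin 1 and AAV-GFP 1, the lowest of their groups, are the 2 treatment-named libraries.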

How the results depend on the processing

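Over 17 alternatives 0 of the 10 class I genes and 0 genes of the other class I pathway lists passed for the treatment. With limma-voom, without a filter, without both treatment-named libraries, and without AAV-Adipsin 3 or any 1 AAV-GFP library, 0 of all genes tested passed. Cfd did not pass there either, so the 0 of 10 in those fits carries no information. The median log2 fold change of the 10 lay between −0.08 and 0.19 with 1 library left out. Nlrc5 kept its direction in all 17. The other 9 fold changes, all near 0, changed sign in some. B2m was at 0.00552 with RLE scaling, 0.0305 with library totals alone, 0.00158 without a filter, 0.00513 with DESeq2, 0.0461 with limma-voom, 0.0543 with style as a batch and 0.0849 without both treatment-named libraries. Psmb9 was at 0.0179 with library totals alone and 0.0044 with limma-voom. Deviations of same-numbered libraries from their group means correlated at 0.661, −0.011 and 0.0071 for replicates 1, 2 and 3. Replicate numbers thus showed no pairing for replicates 2 and 3, and the libraries of replicate 1 are the 2 treatment-named ones. The fit with the replicate block also left out the unpaired AAV-GFP 4; 1080 genes then had an unadjusted p under 0.05, against 570 without AAV-GFP 4 and no block and 191 with all libraries. In it 0 members passed, and all 10 were above 0. B2m was at 0.39, H2-K1 at 0.015, H2-D1 at 0.0432, Tapbp at 0.0663 and Psmb9 at 0.0952. An unadjusted p under 0.05 was found for 3 members, where 6.62% of all genes tested had one. These were Nlrc5 at 0.86 (unadjusted p of 0.00725), Psmb10 at 0.19 (0.00804) and Psmb8 at 0.23 (0.0137, edgeR). With 1 library left out in turn, the log2 fold change ran from −0.435 to 0.481 for B2m, −0.156 to 0.0277 for H2-K1, −0.166 to 0.0649 for H2-D1, −0.0106 to 0.262 for Tap1, −0.0196 to 0.154 for Tap2, −0.274 to 0.117 for Tapbp, −0.0328 to 0.293 for Psmb8, −0.0714 to 0.0971 for Psmb9 and −0.124 to 0.226 for Psmb10. The log2 difference of the ratios ran from −0.116 to 0.247 for Psmb8/Psmb5, −0.159 to 0.0913 for Psmb9/Psmb6 and −0.171 to 0.21 for Psmb10/Psmb7. The count of members lower by style, 6, ran from 0 to 7 with 1 library left out and from 5 to 7 under other scalings and tools. The cause of these changes was not tested, and some of them came with all 7 libraries in the fit. Few reads limit Nlrc5, and 3 against 4 mice limit every interval. The treatment intervals printed come from the model without style. With style as a batch, the SE was 0.10 in place of 0.29 for Tapbp, 0.095 in place of 0.25 for Psmb10 and 0.11 in place of 0.23 for Psmb8. It was 0.40 in place of 0.48 for B2m, and 0.13 in both fits for Psmb9.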
